A study of Mus musculus with 2 samples.

Results

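The genes described here are 55 transcription factors and cofactors known from the hypothalamus, and their levels were followed across neurons of the arcuate nucleus (ARC) and of nuclei that carried a second label, PVH. They were taken from a fixed list of gene symbols. Of the 55, 54 had at least 1 UMI in 3 or more barcodes of the count matrix, against 23249 of all 32285 genes. A UMI, or unique molecular identifier, marks 1 captured RNA molecule. The exception, Sox2, had 0 UMIs, and Gsx1 had 20 UMIs in 20 nuclei of the whole matrix, too few for any comparison, so that 53 members entered the comparisons.

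Nuclei of male wild-type C57BL/6J mice aged 10 to 12 weeks had been sorted by the neuronal protein NeuN and sequenced as 1 pooled 10x Genomics gene expression library with its hashtag library. Hashtags are antibodies with a DNA barcode, which mark each preparation so that preparations can be pooled. The sample labels name ARC tissue only, while the hashtags are named ARC and PVH, and no label says what PVH stands for or which nuclei came from which mouse. After the filters, 10170 nuclei remained, of which 3767 were called ARC, 3074 PVH, 944 doublets of both hashtags and 2385 neither.

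Nuclei called ARC held 19492658 UMIs with a median of 4827 per nucleus, and those called PVH 16732895 UMIs with a median of 5039. The hashtags separated the nuclei weakly, with median counts of 95 for the ARC and 77 for the PVH hashtag in nuclei called ARC and of 49 and 125 in nuclei called PVH. Of 20 neuron clusters, 16 nevertheless held more than 90% of their nuclei from 1 hashtag, 10 from ARC and 6 from PVH. Neuropeptide transcripts were found with both hashtags. Agrp was at 174 CPM (UMIs of a gene per 1000000 UMIs of the group) with the ARC and 152 with the PVH hashtag. Npy was at 122 and 77.6, Pomc at 164 and 90.3, and Oxt at 565 and 616. The 68 nuclei of the non-neuronal clusters described below also held 52 Agrp, 32 Npy, 33 Pomc and 194 Oxt UMIs. The AGRP-like cluster held 748 ARC but 10 PVH nuclei. These levels therefore do not show which nuclei expressed the peptides, and the source of the UMIs was not tested. Since there was 1 library with 1 preparation per hashtag, there were no replicates and no test was possible. All intervals are 95% intervals that cover counting error only, and fewer nuclei of a type and less RNA per nucleus cannot be told apart where sides are compared as a whole.

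Transcription factors bind DNA and set which genes a cell can use. In the hypothalamus they first divide the neural tissue into territories and later keep each neuron type's choice of transmitter and neuropeptide. Sim1, Otp and Pou3f2 act together in the formation of neuroendocrine neurons, Nkx2-1, Tbx3 and Isl1 in the formation of arcuate neurons, and the Dlx genes in GABAergic neurons. Most members bind DNA themselves, while Lmo4 and Vgll3 are cofactors that act through other factors.

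Promoters are shown for Tbx19, which had the largest fold in any cluster, and for Pou3f2 and Ebf3, which like Sim1 were highest in cluster 17 of the neuron clusters described below. The windows are the 250 bases before the start of transcription in RefSeq (GRCm38.p6), at chr1:165160774-165161023, chr4:22488367-22488616 and chr7:137314446-137314695, all on the minus strand. Capitals mark the letters TAATTA, the core of many homeodomain sites, and CCAAT.
Tbx19: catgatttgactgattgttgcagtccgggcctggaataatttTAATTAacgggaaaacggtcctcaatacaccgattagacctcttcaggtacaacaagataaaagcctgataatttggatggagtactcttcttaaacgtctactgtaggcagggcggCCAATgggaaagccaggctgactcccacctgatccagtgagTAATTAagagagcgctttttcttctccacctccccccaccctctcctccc
Pou3f2: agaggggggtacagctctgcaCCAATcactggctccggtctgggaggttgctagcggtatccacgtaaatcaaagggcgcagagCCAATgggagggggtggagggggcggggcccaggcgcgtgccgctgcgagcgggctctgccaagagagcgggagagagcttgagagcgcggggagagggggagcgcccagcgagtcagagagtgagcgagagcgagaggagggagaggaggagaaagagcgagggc
Ebf3: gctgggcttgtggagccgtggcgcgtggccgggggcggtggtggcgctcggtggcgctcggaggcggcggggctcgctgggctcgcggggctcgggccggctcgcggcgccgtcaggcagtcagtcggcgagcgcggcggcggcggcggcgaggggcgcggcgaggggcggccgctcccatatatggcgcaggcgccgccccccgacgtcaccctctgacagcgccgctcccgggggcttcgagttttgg

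The 3 windows differed in base composition, with 47.6% G and C for Tbx19, 66.8% for Pou3f2 and 80% for Ebf3. Both strands were searched for these motifs, for the E-box CACGTG and for the TATA box letters TATAAA, and no match overlapped another in these windows. Of the members, 45 had a promoter in the RefSeq table. TAATTA stood in 3 of these 45, those of Nfix, Tbx19 and Zfp536, and in 4.9% of all 27025 promoters. CCAAT stood in 20 of the 45 and in 34.5% of all promoters. CACGTG was found for Zic1 alone, against 6.05% of all promoters, and TATAAA for 4 members, Dach2, Hmx2, Meis2 and Sim1, against 13%. These matches are descriptions of the letters in each window.

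The first comparison asked which members differed between nuclei with the PVH and with the ARC hashtag. Sim1, which is required for neurons of the paraventricular nucleus, was at 109 CPM (104 to 114) with the PVH and 10.6 CPM (9.17 to 12.1) with the ARC hashtag, a 10.3-fold difference (8.91 to 11.9). Tbx3, a T-box factor that maintains the identity of arcuate peptide neurons, was at 42.5 CPM (39.7 to 45.5) with the ARC and 3.94 (3.05 to 5.02) with the PVH hashtag, 10.8-fold apart (8.39 to 14.1). Of the 53 members, 13 were at least 2-fold higher with the PVH hashtag, against 3.36% of 18112 genes. Another 8 were at least 2-fold higher with the ARC hashtag, against 2.68% of genes, and 32 lay within 2-fold. Counted either way, 21 of 53 members were apart, against 6.04% of genes. The median ratio of PVH over ARC was 1.01 over the members and 0.971 over all genes, so that the members lay on both sides of the middle.

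Among the members higher with the PVH hashtag, those past 5-fold were Ebf1, Lhx6, Sim1, Meis2, Zic1, Pou3f2 and Ebf3. Ebf1, an early B-cell factor that also acts in developing neurons, was at 7.44 CPM with the ARC and 83.6 CPM with the PVH hashtag, 11.2-fold apart (9.47 to 13.4). Meis2, a TALE homeodomain cofactor of Pax and Dlx proteins, was at 5.49 and 51.2 CPM, 9.33-fold apart (7.62 to 11.5). Lhx6, a LIM homeodomain factor of GABAergic neurons, rested on 3 UMIs with the ARC and 28 with the PVH hashtag, which gives 10.9-fold with an interval of 3.36 to 55.9, but 0.513 where a 4-fold difference in hashtag counts was required of each nucleus.

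Pou3f2, a POU factor of neuroendocrine neurons, differed 5.67-fold (4.72 to 6.84), from 7.23 to 41.0 CPM. Its ratio was close to those of Ebf3, at 5.40 (4.46 to 6.58), and of Zic1, a zinc finger factor of midline tissue, at 5.81 (4.55 to 7.51). Lhx9 followed at 4.13 (2.60 to 6.79), and at 0.953 under the 4-fold hashtag call, with the same limit. The other 5 lay between 2 and 2.5-fold: Onecut2 at 2.45, Bcl11a at 2.42, Lef1 at 2.35, Foxp2 at 2.34 and Zfp804b at 2.03, the last just past the threshold.

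On the ARC side, Tbx19, a T-box factor best known for switching on Pomc in the pituitary, was at 3.18 CPM against 0.538, 5.91-fold apart (2.92 to 13.5). Isl1, which drives Pomc and other genes of arcuate neurons, was at 133 CPM (128 to 138) with the ARC and 44.0 (40.9 to 47.3) with the PVH hashtag, 3.02-fold apart. It had at least 1 UMI in 43.7% of ARC and 17.0% of PVH nuclei. Nkx2-1, the homeodomain factor that marks the basal hypothalamus, was at 14.4 and 4.90 CPM, 2.93-fold apart (2.28 to 3.80). The remaining 4 were Sox14 at 2.65-fold, Vgll3 at 2.50, Six6 at 2.36 and Prdm12 at 2.15-fold, a zinc finger factor that POMC neurons need, with an interval of 1.39 to 3.40.

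The 32 members within 2-fold had ratios of PVH over ARC from 0.627 for Glis3 to 1.85 for Tshz1. Nearest to 1 were Dlx6 at 1.00 (0.717 to 1.40), Dlx5 at 1.01, Tshz2 at 0.966, Casz1 at 0.973 and Zfp804a at 1.04. Tshz2, with 9436 ARC and 7825 PVH UMIs, and Zfp804a, with 5326 and 4744, had narrow intervals. They ran from 0.937 to 0.996 and from 0.998 to 1.08. Just inside the threshold stood Tshz1 and Lmo4, at 1.85 each, and Zfp536 at 1.77. How the hashtags were called and nuclei filtered or scaled moved many of these ratios. Over 8 such alternatives, 12 of the 21 members apart stayed at least 2-fold apart in each, with Sim1 at 8.73 to 11.2, Meis2 at 7.98 to 12.2 and Ebf1 at 7.76 to 20.9. Tbx3 was among them, but its ratio of PVH over ARC rose from 0.0927 to 0.241, which is 4.15-fold, with hashtag counts centred within each nucleus. The other 9 came within 2-fold in at least 1 alternative, namely Lhx6, Lhx9, Onecut2, Lef1, Zfp804b, Tbx19, Sox14, Six6 and Prdm12, with Lef1 at 1.10 and Tbx19 at 0.660 under the 4-fold hashtag call. Of the 32 within 2-fold, 11 passed it in at least 1 alternative. Among them were Nfib at 5.21, Bcl11b at 7.04 and Casz1 at 3.59 under the same call, which left 106 ARC nuclei. Ratios of genes with few UMIs under that call can rest on a count of 0 set to 3 counts.

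Otp, which shares a developmental pathway with Sim1, did not share its difference between sides, with 24.4 CPM in ARC and 19.9 CPM in PVH nuclei.

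**Figure D1:**
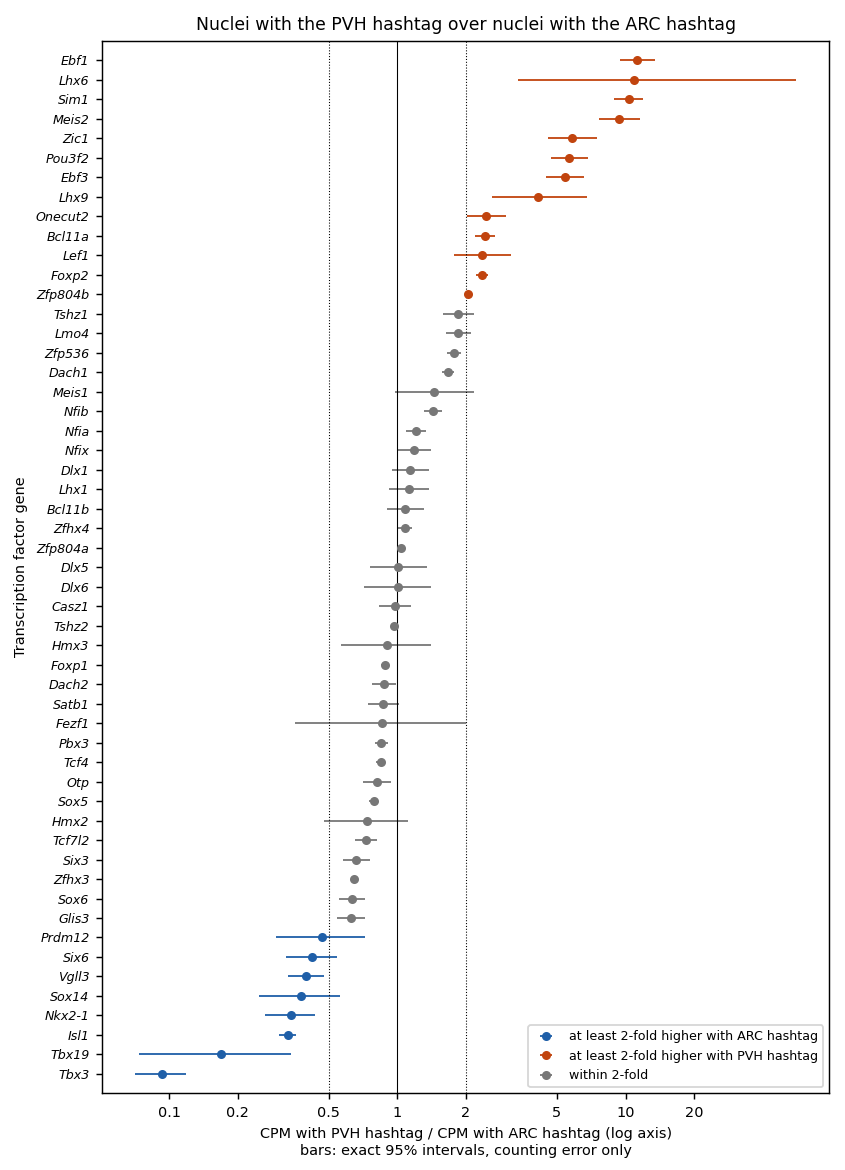
Ratio of CPM in nuclei with the PVH hashtag over nuclei with the ARC hashtag for the 53 members (log axis, points with 95% intervals of counting error, dotted lines at 2-fold). The 13 members in red lie from 2.03 to 11.2, the 8 in blue from 0.0927 to 0.466 and the 32 in grey between 0.627 and 1.85.

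A side can differ because its mixture of neurons differs or because like neurons differ, so the ratio was also taken within clusters. A cluster can itself be a mixture of neurons, so these ratios do not tell such cases apart. Clusters were made from nuclei of both hashtags together with all members left out of the variable genes, 37 of which would otherwise have been among the 2000 used. Only 3 neuron clusters held at least 50 nuclei of each side. In cluster 1, with 394 ARC and 589 PVH nuclei, 15 of 47 members were at least 2-fold apart, against 3.46% of genes. In cluster 6, with 225 and 181 nuclei, 7 of 31 members were, against 4.38%, and in cluster 11, with 192 and 67 nuclei, 2 of 27, against 6.22%.

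Within cluster 1, Ebf1 was 5.58-fold (2.79 to 12.6) and Meis2 3.57-fold (1.96 to 7.02) higher in PVH nuclei, and Sim1 3.02-fold (1.00 to 12.2) on 4 and 19 UMIs. Lhx1 at 2.78-fold, Foxp2 at 2.23 and Onecut2 at 2.13 made up the rest of the 6 on that side. In the opposite direction, Dach2 was at 132 CPM in ARC and 25.5 CPM in PVH nuclei, 5.19-fold apart (3.99 to 6.83), although its levels over all nuclei lay within 2-fold.

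Tbx3 was 4.99-fold (2.55 to 10.5) and Sox14 3.94-fold (1.66 to 10.3) higher in ARC nuclei of the same cluster, and Otp 2.91-fold (1.42 to 6.22). Nfib, Nfix, Glis3, Tcf7l2 and Isl1 also stood on the ARC side, by 2.12 to 2.67-fold. These differences within 1 cluster thus included members, such as Dach2, Otp and Nfib, that did not differ by 2-fold between the sides as a whole.

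Within cluster 6, led by Cgnl1 and Lhx1, Sox5 was 3.10-fold (2.36 to 4.11) higher in PVH nuclei, with Foxp2 at 2.45, Zfp804b at 2.22 and Zfp804a at 2.21-fold. Glis3 was 4.32-fold (2.79 to 6.96), Zfp536 3.27-fold and Casz1 2.59-fold higher in ARC nuclei there. In cluster 11, the VMH-like cluster described below, Tcf7l2 was 5.83-fold higher in ARC nuclei on 33 and 2 UMIs, and Foxp2 2.12-fold. Over these 3 clusters alone, weighted alike on both sides, the ratio was 2.70 for Sim1, 3.01 for Meis2 and 4.64 for Ebf1. It was 0.225 for Tbx3 and 1.39 for Nkx2-1, which lay at 0.341 over all nuclei. The clusters where Sim1, Meis2 and Ebf1 were highest are not among the 3. Sim1 stood at only 1.91 CPM in ARC and 5.14 CPM in PVH nuclei here. These ratios therefore do not adjust the differences over all nuclei for the mixture of neurons.

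The second comparison described where each member was highest among the 20 neuron clusters, numbered by size and holding 98 to 983 nuclei. In its highest cluster a member was at a median of 5.11-fold over all other neurons, against 1.76-fold over all genes. At least 3-fold was reached by 45 of 53 members, against 22% of 18034 genes, and at least 10-fold by 14, against 2.13% of genes. A high fold did not always mean that most UMIs lay there, since 6 members, Tbx19, Lhx6, Lhx9, Lef1, Prdm12 and Meis2, had at least 50% of their neuronal UMIs in the highest cluster, while Dlx5 had 4.55% and Zfp536 8.47%. The share of all genes with at least 50% there is not given, and Lhx6 and Tbx19 had only 31 and 70 neuronal UMIs. The 8 members under 3-fold were Tcf4 at 1.88, Zfhx4 at 1.93, Tshz2 at 1.99, Isl1 at 2.34, Satb1 at 2.64, Zfhx3 at 2.64, Six3 at 2.73 and Dach2 at 2.98-fold. Just past it were Dlx5 at 3.14-fold, on 9 UMIs in its highest cluster, and Foxp1, a forkhead factor seen in every cluster, at 3.18-fold.

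Tbx19, Lef1 and Meis2 had most of their neuronal UMIs in 1 cluster each, but most nuclei of those clusters had no UMI of the gene. Tbx19 was found in 34 of 202 nuclei of cluster 15. Lef1 was found in 108 of 983 nuclei of cluster 1, and Meis2 in 147 of 734 nuclei of cluster 3. Tbx19 was at 42.3 CPM (30.6 to 57.0) in cluster 15, a GABAergic cluster with Crhr2 among its leading genes, and at 3.16 CPM in the next cluster, 54.7-fold over other neurons (33.1 to 92.1). It was at 0 in 11 clusters. Lef1, a mediator of Wnt signalling, had 81.7% of its neuronal UMIs in cluster 1, 29.3-fold over other neurons (20.8 to 41.9). Meis2 had 76.3% of its UMIs in cluster 3, a GABAergic cluster of which 95.5% of nuclei carried the PVH hashtag and whose leading genes included Pax6. There it was at 185 CPM (172 to 199), 26.4-fold over other neurons, while the remaining 19 clusters lay at or below 18.1 CPM.

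Ebf1 was at 637 CPM (592 to 685) in cluster 16, led by Sim2, and at 124 CPM in cluster 5, the next below it. Ebf3, its paralog, was highest in another cluster, 17, at 302 CPM (264 to 345), 21.2-fold over other neurons. Lhx9, a LIM homeodomain factor, was at 26.0 CPM in cluster 5 and at or below 4.21 CPM elsewhere. Vgll3 was at 176 CPM (154 to 201) in cluster 10 and 136 CPM (116 to 160) in the KNDy-like cluster 13, with intervals that overlap, and at 34.4 CPM in the next.

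Cluster 17, with 122 nuclei of which 72.1% carried the PVH hashtag, was the highest cluster of 6 members, the most of any cluster. These were Sim1, Ebf3, Pou3f2, Bcl11b, Zfp804a and Zfp804b. Cluster 20, the smallest with 98 nuclei, was the highest of 5 members. The share of all genes that were highest in each cluster is not given, so these counts do not describe a trait of cluster 17. Zfp804a, a zinc finger gene of neurons, reached 1935 CPM (1836 to 2037) there and 682 CPM in cluster 12, the next. Cluster 18, with 118 nuclei and the deepest median at 7133.5 UMIs, was highest for Foxp1, Foxp2 and Tshz1. Foxp2, a forkhead factor, was at 795 CPM (737 to 856) there, at 545 CPM in the GHRH-like cluster 14 and at 13.0 CPM in cluster 20.

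**Figure D2:**
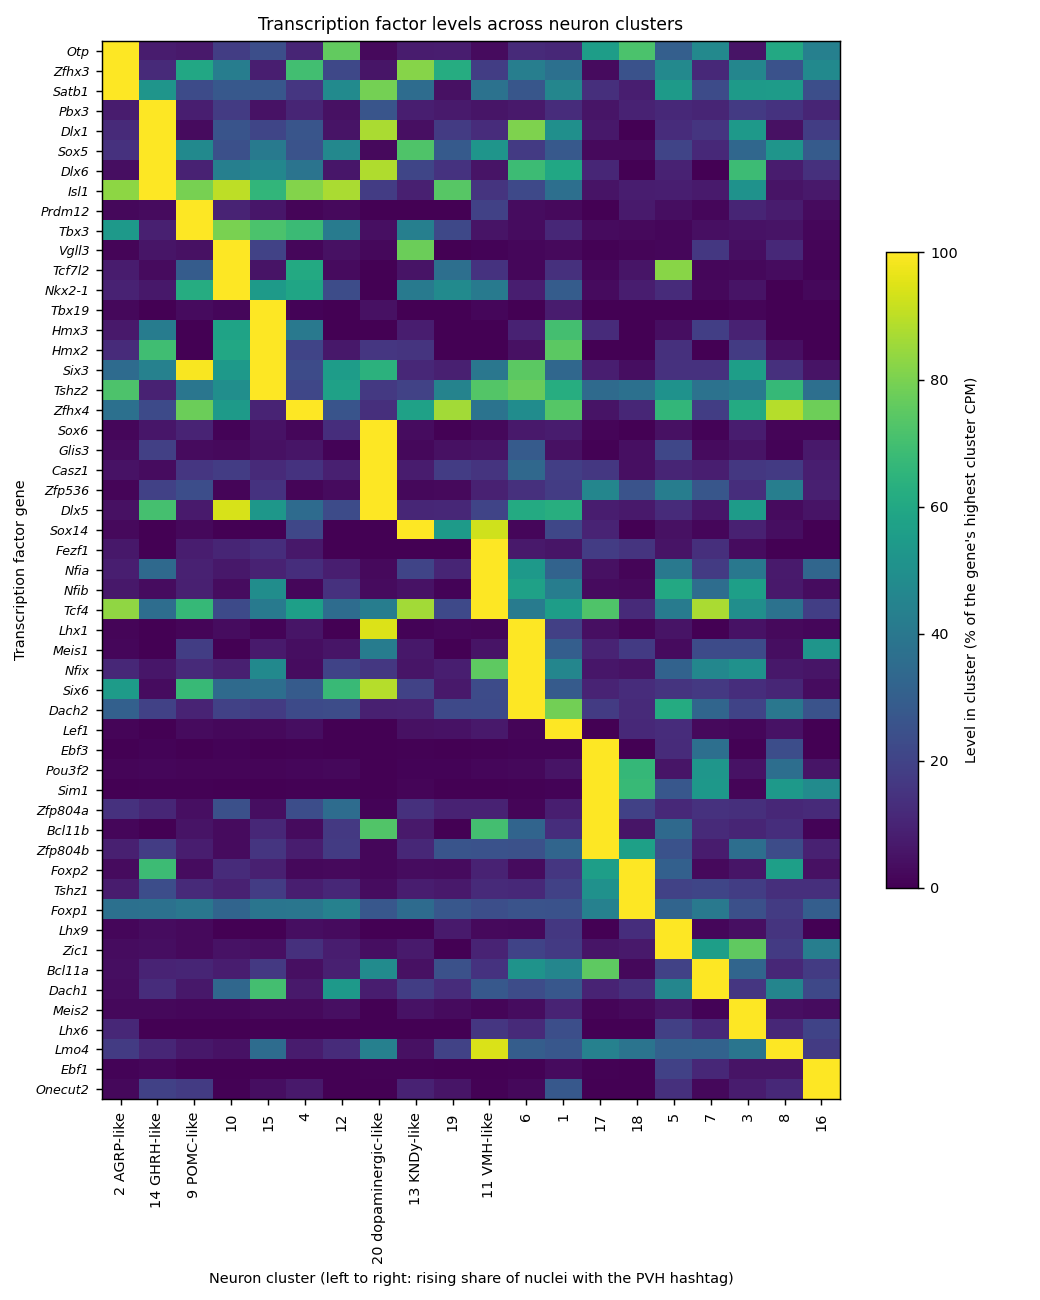
Level of each of the 53 members in each of the 20 neuron clusters, as a percentage of that gene's highest cluster CPM (colour scale 0 to 100), with clusters ordered by the share of nuclei with the PVH hashtag. Tbx19, Lef1, Meis2 and Ebf1 show 1 bright cluster each, while Foxp1, Tcf4 and Tshz2 stay above the dark end in most clusters.

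Sim1 split the clusters into separate groups. It was between 112 and 414 CPM in 6 clusters, numbers 5, 7, 8, 16, 17 and 18, all glutamatergic, and at or below 5.31 CPM in the other 14. In cluster 17, 90.2% of nuclei had a Sim1 UMI, against 1.47% of the 68 non-neuronal nuclei, whose 2 clusters had median depths of 2501 and 4480.5 UMIs. After each nucleus was thinned to 1000 UMIs the share in cluster 17 was 36.9%, against 0 of 68. Pou3f2 was at 73.9 to 204 CPM in 4 of the same clusters and at or below 11.5 CPM in the rest.

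Clusters 5 and 16 held Sim1 with Pou3f2 at 11.5 and 11.3 CPM, and clusters 16 and 18 held it with Ebf3 at 0 and 1.14 CPM. Across the 20 clusters, the members most like Sim1 in log2(CPM + 1) were Pou3f2, with a Pearson's r of 0.90, Ebf3 at 0.70, Tshz1 at 0.66 and Otp at 0.62, and the most opposite was Isl1 at −0.80. Otp, a homeodomain factor, departed from Sim1 in 2 clusters without it. It was at 69.8 CPM (62.0 to 78.4) in the AGRP-like cluster and 53.0 CPM (41.2 to 67.0) in cluster 12, both GABAergic and from ARC, while clusters 7 and 8, with Sim1, stood at 32.8 and 42.1 CPM. The intervals of the AGRP-like cluster, cluster 12 and cluster 18 overlap, so that their order is not resolved. These correlations are descriptions over clusters of 1 library.

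Tbx3 and Isl1 ran the other way. Tbx3 was between 20.6 and 94.5 CPM in 8 clusters, each over 90% ARC, and at or below 10.5 CPM in the other 12. Isl1 was between 106 and 208 CPM in 9 clusters, of which 8 were from ARC and 1 was the Meis2 cluster 3, and at or below 75.6 CPM in the other 11. Of the clusters over 90% ARC, the KNDy-like cluster had Tbx3 at 40.7 CPM but Isl1 at 18.6 CPM, while the GHRH-like cluster had Isl1 at 208 CPM and Tbx3 at 8.17 CPM. Across clusters, Tbx3 was most like Nkx2-1, with r = 0.75, and Isl1, with r = 0.73.

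**Figure D3:**
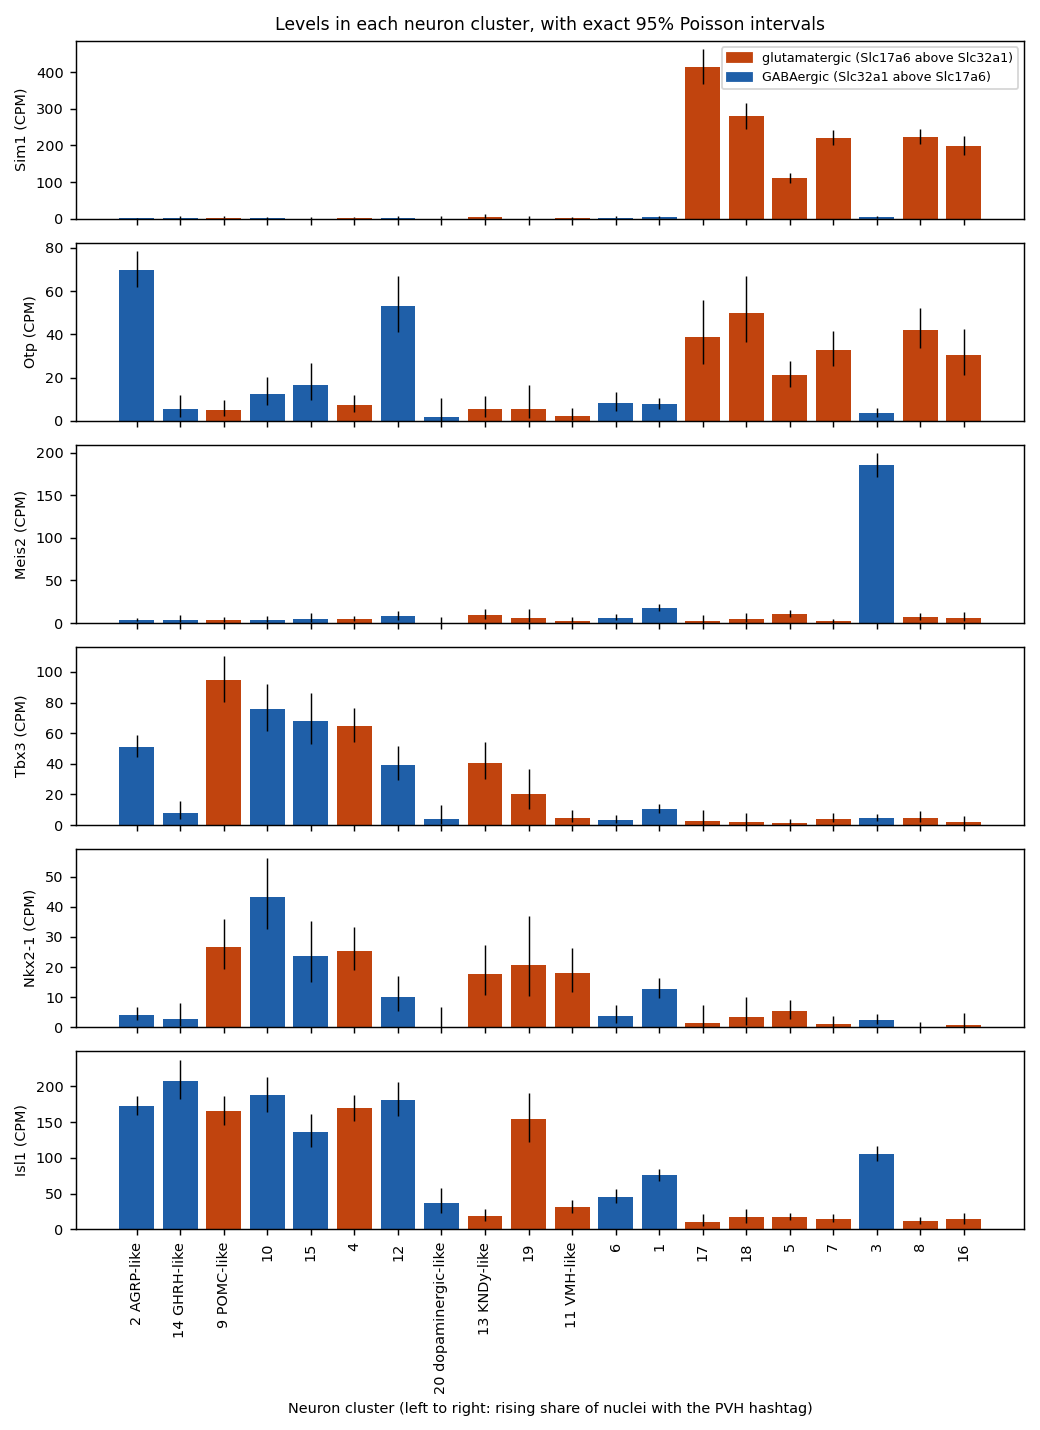
CPM of Sim1, Otp, Meis2, Tbx3, Nkx2-1 and Isl1 in each of the 20 neuron clusters, ordered by the share of nuclei with the PVH hashtag, with 95% Poisson intervals; bars are red for glutamatergic and blue for GABAergic clusters. Sim1 stands at 112 CPM or more in 6 red clusters, Meis2 in 1 blue cluster at 185 CPM, and Tbx3 at 20.6 CPM or more in 8 clusters from ARC.

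Classes were then named from markers that are not members, which gave 6 named clusters with 1828 nuclei. Slc18a3, a marker of the GHRH-like list, had 0 UMIs, and Kiss1, of the KNDy-like list, had 7 in all neurons. Htr2c, of the POMC-like list, was lower in the POMC-like cluster than in other neurons, at 146 against 220 CPM. Pomc, Cartpt, Sntb1 and Lepr were 3.01 to 8.29-fold higher there. Agrp was only 1.91-fold higher in the AGRP-like cluster, while Npy, Acvr1c and Corin were 3.33 to 13.9-fold higher. The AGRP-like cluster of 758 nuclei, the hunger neurons of the ARC, had 5 of 53 members at least 2-fold higher than other neurons, against 3.79% of genes, and 36 at least 2-fold lower, against 9.3%. The 5 were Otp at 4.27-fold (3.68 to 4.94), Zfhx3 at 2.64, Satb1 at 2.64, Tbx3 at 2.40 and Isl1 at 2.10-fold. Zfhx3, a large homeodomain and zinc finger factor, was at 1515 CPM there and 574 CPM in the other neurons. Otp and Tbx3 are both known from the making and upkeep of AGRP neurons.

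The POMC-like cluster of 283 nuclei, neurons that promote satiety, also had 5 members higher, against 4.26% of genes, and 28 lower, against 7.35%. Prdm12 stood out at 31.7 CPM (23.7 to 41.6) against 1.52 CPM, 20.9-fold higher (14.0 to 31.3). Tbx3 was 4.41-fold, Nkx2-1 2.90-fold, Six3 2.79-fold and Six6 2.18-fold higher. Six3 and Six6 are homeodomain factors of the anterior hypothalamus and eye. Tbx19 was not among these 5, since its neuronal UMIs lay mostly in cluster 15.

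In the VMH-like cluster of 259 nuclei, neurons of the adjoining ventromedial nucleus, 8 members were higher, against 4.09% of genes, and 22 lower, against 7.72%. Fezf1, a zinc finger factor required for this nucleus, was 17.4-fold higher (7.22 to 40.5) on 11 of its 26 UMIs. Sox14 was 8.60-fold, Bcl11b 4.99-fold, Lmo4 3.35-fold and Prdm12 2.25-fold higher, the last on 9 UMIs with an interval of 0.996 to 4.45. The 3 nuclear factor I genes were all on this list, with Nfia at 4.44, Nfib at 3.82 and Nfix at 2.62-fold.

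The KNDy-like cluster of 222 nuclei, which regulate reproduction, had 3 members higher, against 4.92% of genes, and 28 lower, against 8.83%. These were Vgll3 at 9.90-fold (8.20 to 11.9), Sox14 at 8.85-fold (5.74 to 13.3) and Sox5 at 2.43-fold. The GHRH-like cluster of 208 nuclei, which was also led by Chat, had 9 higher, against 4.25%, and 25 lower, against 8.51%. Pbx3, a TALE homeodomain factor, was at 804 CPM (752 to 858) in it and 86.9 CPM in other neurons, 9.25-fold higher. Foxp2 was 4.74-fold, Dlx1 3.67-fold, Sox5 3.45-fold, Dlx6 3.31-fold and Hmx2 3.10-fold higher, and Glis3, Isl1 and Dlx5 were between 2.22 and 2.42-fold higher.

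The dopaminergic-like cluster, the smallest with 98 nuclei, had 11 members higher, against 4.35% of genes, and 24 lower, against 8.82%. Sox6, an SRY-box factor, was at 380 CPM (330 to 436) against 17.5 CPM in other neurons, 21.7-fold higher. Glis3 was 14.7-fold (12.3 to 17.5), Lhx1 9.43-fold (6.84 to 12.7), Casz1 7.29-fold and Zfp536 6.11-fold higher. Bcl11b, Dlx5, Dlx1, Six6, Dlx6 and Meis1 were between 2.30 and 4.70-fold higher, Meis1 on 3 UMIs with an interval of 0.466 to 6.96. Lhx1 was at a like level in this cluster, 91.3 CPM, and in cluster 6, 96.5 CPM, where the intervals overlap, and at 18.1 CPM in the next.

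The third comparison set the 11 glutamatergic clusters, with Slc17a6 above Slc32a1, against the 9 GABAergic clusters with the reverse order. Sim1 and Ebf3 had the largest ratios toward glutamatergic clusters, and the members higher in GABAergic clusters included all 3 Dlx genes. At least 2-fold higher in glutamatergic clusters were 10 members, against 2.82% of genes, and in GABAergic clusters 13, against 2.16%. The other 30 lay within 2-fold. The ranges of the clusters of the 2 classes overlapped for every member, so that no member separated the classes cluster by cluster. The share of all genes for which this holds is not given.

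Sim1 was at 123 CPM (117 to 128) in glutamatergic and 3.06 CPM (2.34 to 3.93) in GABAergic clusters, 40.0-fold apart (31.0 to 52.5). By cluster it ran from 0 to 414 CPM with a median of 112 among the glutamatergic and from 0 to 5.12 CPM among the GABAergic. Ebf3 differed 22.5-fold (16.2 to 32.1), Pou3f2 6.82-fold and Ebf1 5.72-fold. Lhx9 at 3.43, Prdm12 at 3.07, Sox14 at 2.87, Fezf1 at 2.80, Tcf7l2 at 2.19 and Foxp2 at 2.03-fold followed. Tcf7l2, a mediator of Wnt signalling, had its highest level, 164 CPM, in the GABAergic cluster 10.

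The 13 members higher in GABAergic clusters became 7 with 50 components and 4 at a hashtag quantile of 0.99. The largest of the 13 differences were those of Tbx19, by 13.3-fold (4.95 to 50.1), Meis2 by 7.86, Lhx1 by 7.08 and Hmx2 by 5.97-fold. For Tbx19, Meis2 and Lef1 this rested mostly on the 1 cluster each that held them. The Dlx genes, which act in the formation of GABAergic neurons, were spread more widely, and differed by 3.74-fold for Dlx1 (2.93 to 4.82), 4.02-fold for Dlx5 and 3.96-fold for Dlx6. Dlx1 ran from 2.30 to 42.7 CPM over the GABAergic and from 0 to 11.2 CPM over the glutamatergic clusters. Hmx3 at 3.47, Lhx6 at 3.35, Sox6 at 3.05, Isl1 at 2.17 and Six3 at 2.04-fold completed the list with Lef1, at 4.61-fold. The direction of Lef1 turned with the clustering, with a ratio of glutamatergic over GABAergic of 2.23 with 20 and 27.6 with 50 components, and that of Lhx6, on 31 UMIs, turned with the hashtag call. So did those of Meis2, to 3.24, and Dlx6, to 1.18, at the quantile of 0.99, and that of Hmx3, to 1.11, with 50 components. Cluster 1, which holds most Lef1 UMIs, had close levels of both transmitter genes, 38.3 CPM of Slc17a6 and 49.9 CPM of Slc32a1.

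The sides differed in these ratios. Among ARC nuclei, Otp was 4.24-fold higher in GABAergic clusters, at 34.0 CPM against 8.02 CPM. Among PVH nuclei it was 5.77-fold (4.16 to 8.18) higher in glutamatergic clusters, at 31.9 CPM against 5.54 CPM. Over both sides together these opposite differences gave a ratio of 0.928 (0.805 to 1.07). Prdm12 was 7.58-fold (4.18 to 14.7) higher in the glutamatergic clusters of ARC nuclei, while in PVH nuclei its ratio was 0.734 (0.332 to 1.60). Sim1 was higher in glutamatergic clusters on both sides, 16.4-fold in ARC and 36.4-fold in PVH nuclei.

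**Figure D4:**
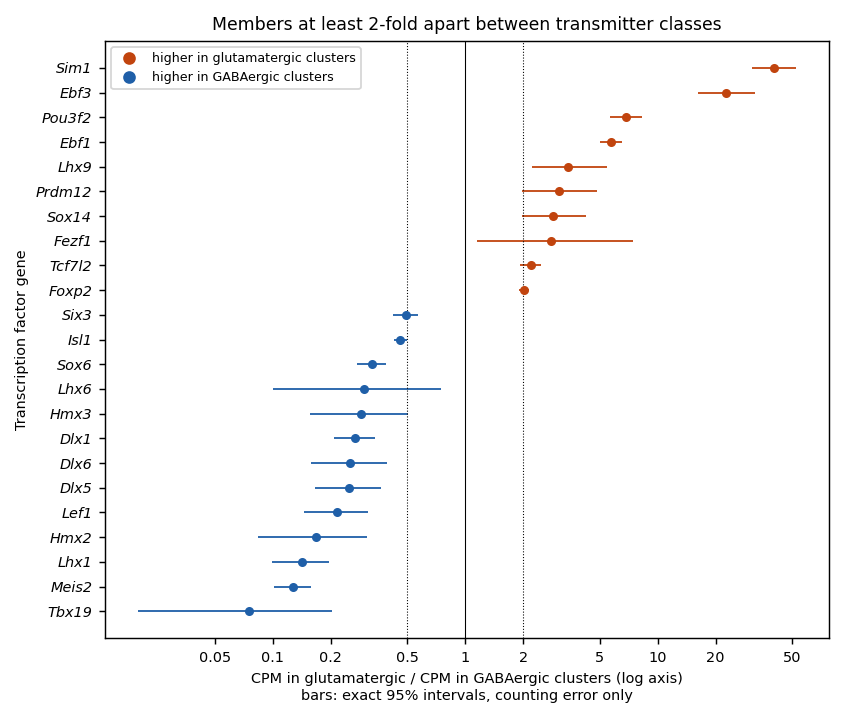
Ratio of CPM in glutamatergic over GABAergic clusters (log axis, points with 95% intervals of counting error, dotted lines at 2-fold) for the 23 members at least 2-fold apart. The 10 red points run from 2.03 for Foxp2 to 40.0 for Sim1, and the 13 blue points from 0.490 for Six3 down to 0.0754 for Tbx19.

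Many members have a close relative among the 55, and 22 of the 23 listed pairs could be compared across clusters, the pair of Sox2 with Sox14 being the exception. The median r of log2(CPM + 1) was 0.43 over the 22 pairs and 0.051 over all 1378 pairs of members. At least 0.5 was reached by 9 of the 22, against 7.04% of all pairs, and none was below 0, against 44.0%. These values share the same clusters and library and are given without a test.

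Nfib and Nfix were most alike, with r = 0.93, followed by Dlx5 with Dlx6 at 0.87, Dlx1 with Dlx6 at 0.84, and Hmx2 with Hmx3 and Zfhx3 with Zfhx4 at 0.83 each. Hmx2 and Hmx3, neighbouring homeodomain genes on chromosome 7, both peaked in cluster 15, at 11.8 and 10.8 CPM, with cluster 1 next. These peaks rested on 12 and 11 UMIs. The intervals of 6 other clusters for Hmx2 and of 7 for Hmx3 overlapped the peak, so that the order is not resolved. At the other end stood Lhx1 with Lhx9 and Tshz1 with Tshz2 at 0.04, Meis1 with Meis2 at 0.06 and Sox5 with Sox6 at 0.10. The pairs that shared their highest cluster numbered 5 of 22, namely Hmx2 with Hmx3, Dlx1 with Dlx6, Foxp1 with Foxp2, Nfia with Nfib and Zfp804a with Zfp804b. The share of all pairs of members for which this holds is not given, so the count cannot be called low or high. Bcl11a and Bcl11b had r = 0.49 with highest clusters 7 and 17, and Dach1 and Dach2 had r = 0.36 with highest clusters 7 and 6.

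**Figure D5:**
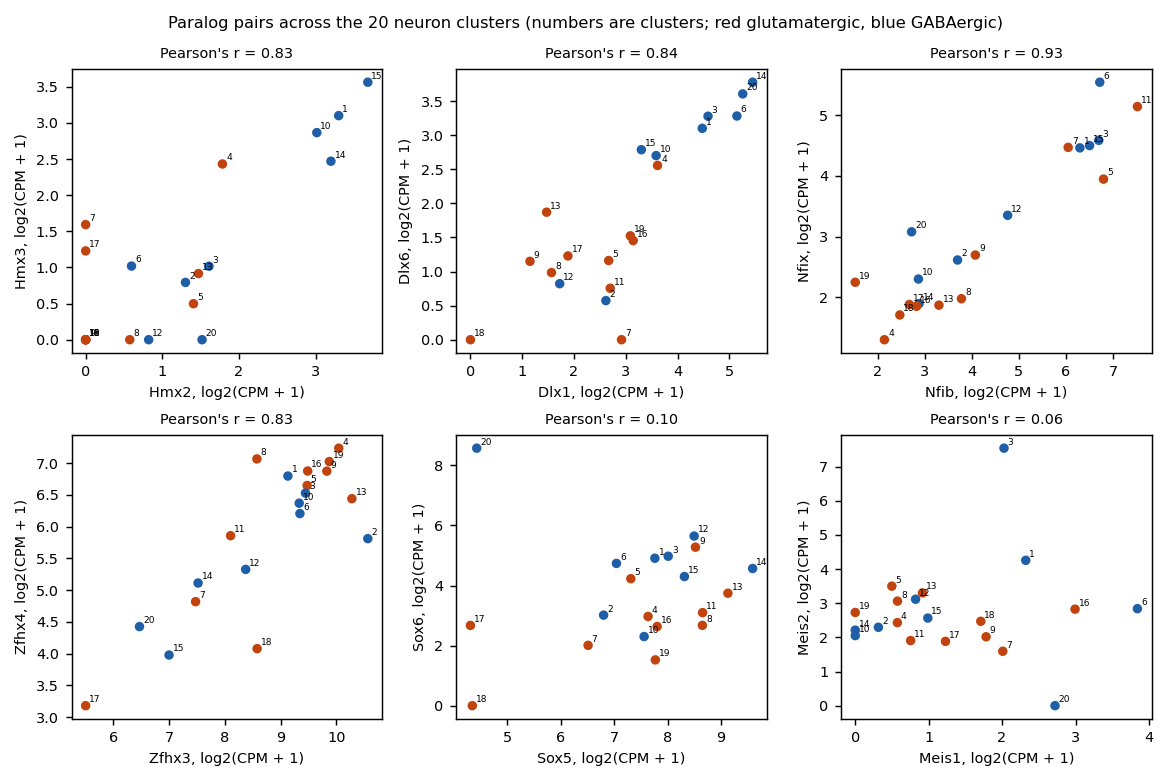
Levels of 6 paralog pairs in the 20 neuron clusters, in log2(CPM + 1) on both axes, each point being 1 numbered cluster (red glutamatergic, blue GABAergic). The points of Nfib and Nfix (r = 0.93) rise together, while Sox6 is high in cluster 20 where Sox5 is near its lowest, and Meis2 in cluster 3 where Meis1 is not.

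Within single nuclei, 12 pairs of members were examined as the share of nuclei with a UMI of the second gene among carriers of the first. In 9 pairs the share was higher among carriers, and in 6 after each nucleus was thinned to 1000 UMIs. Carriers had the larger median depth in each of the 12 pairs as counted. Of the 6 pairs higher after thinning, Lhx1 among Six3 carriers was the only one with intervals that did not overlap. The share over all pairs of members is not given. Otp was found in 18.6% (16.3 to 21.2) of 993 Sim1 carriers and 8.39% (7.69 to 9.14) of other neurons, while carriers were also deeper, with median depths of 5695 and 4812 UMIs. After thinning, which left out 1 neuron, the shares were 4.01% (2.09 to 6.91) and 1.82% (1.51 to 2.18). Lhx1 was in 7.89% of Six3 carriers and 3.80% of other neurons, and in 4.85% and 0.954% after thinning. Six6 was in 6.42% of Six3 carriers against 4.12%, and Isl1 in 43.5% of 92 Prdm12 carriers against 31.8%, where the intervals overlap after thinning.

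Nkx2-1 was in 7.76% of Tbx3 carriers against 4.54%, but in 1.13% against 1.06% once thinned, near the level that single UMIs give. Prdm12 was in 3.05% of Tbx3 carriers against 1.16%, and in 0 of 177 against 0.288% after thinning. Among the Dlx genes, Dlx6 was in 3.63% (2.05 to 5.92) of Dlx1 carriers against 2.01% (1.68 to 2.39), intervals that overlap, and in 5.85% of Dlx5 carriers against 2.00%. After thinning it was in 0 of 88 Dlx1 and 0 of 32 Dlx5 carriers. Hmx3 was in 4.04% of Hmx2 carriers against 1.18% on 4 nuclei. Meis2 went the other way, being in 3.26% of Foxp2 carriers against 4.46%, and in 0.176% against 1.93% after thinning. Sox14 was in 3 of 670 Otp carriers, 0.448%, against 1.98% of other neurons, and Gsx1 in 0 of 99 Hmx2 carriers, which allows a share of up to 3.03% at 3 counts, or 3.66% by the exact interval.

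A second list of 54 hypothalamic transcription factors that are not members was counted beside them, of which 50 were found and 44 entered the comparisons. Of these, 15 were at least 2-fold higher with the PVH hashtag, against 3.36% of genes, and 2 with the ARC hashtag, against 2.68%. In their highest cluster 30 reached 3-fold, against 22% of genes. In glutamatergic clusters 11 of the 44 were higher, against 2.82% of genes, and in GABAergic clusters 7, against 2.16%. Their count on the ARC side, 2 of 44, stands beside 8 of 53 for the members. The lists were of unequal depth and no test was made between them.

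Although the nuclei had been sorted for NeuN, 68 of them lay in 2 non-neuronal clusters, and 12 of 53 members were at least 2-fold higher there than in neurons, against 9.78% of genes. Tcf7l2 was at 800.4 CPM in these nuclei and 31.2 CPM in neurons, 25.7-fold higher (22.1 to 29.8), and Sox6 was at 526 against 22.9 CPM. Meis1, which was low in neurons, was 31.9-fold higher (18.8 to 51.7) on 21 UMIs in 68 nuclei.

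The 2 clusters differed from each other. Cluster 21, with 36 nuclei and astrocyte and tanycyte genes such as Slc1a3 in the lead, had Nfia at 853 CPM, Nfib at 933 CPM and Glis3 at 268 CPM, against 157, 127 and 6.05 CPM in cluster 22. Cluster 22, with 32 nuclei and oligodendrocyte genes such as Mobp and Sox10 in the lead, had Zfp536 at 1240 CPM against 19.8 CPM, Onecut2 at 181 CPM on 30 UMIs against 0, and Tcf7l2 at 1053 against 387 CPM. Both rest on few nuclei, with 100793 and 165314 UMIs in all.

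Counting can affect these values. Of the members, 25 span more than 100 kb in GENCODE M21, among them Sox5, Zfhx3 and Zfp804b, and nuclear RNA holds much intronic sequence, so that levels were compared within a gene only. Another annotated gene overlaps 40 of the 55 members, 19 of them on the same strand. The single-exon gene Sox2 lies inside Sox2ot on the same strand, and its 0 UMIs allow, at 3 counts, up to 0.154 CPM in ARC and 0.179 CPM in PVH nuclei, and by the exact interval 0.189 and 0.220 CPM. How overlapping genes shared reads was not tested.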

How the data were processed

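Single-nucleus RNA-seq of 1 pooled library of neuronal nuclei and its hashtag library was analysed. The authors deposited raw UMI counts per gene and barcode for 11409 barcodes and 32285 genes, with counts of 2 hashtags, made with Cell Ranger 5.0 according to the submitters' processing notes and 4.0.0 in the matrix header, on mm10. No annotation of nuclei was used here. For intronic reads, the counting setting was not given in the sources used here.

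As in the study's methods, barcodes were kept if they had above 800 but under 5000 genes, no more than 12000 UMIs and up to 1% mitochondrial UMIs, and genes if seen in at least 3 nuclei (10170 nuclei, 23143 genes). HTODemux (Seurat 5.3.0, R 4.3.3; positive quantile 0.8) assigned hashtags; doublets were removed by hashtag only, so doublets within a hashtag remain. After log-normalization to 10000 UMIs per nucleus, Leiden clustering (leidenbase 0.1.32, resolution 0.55) used 2000 variable genes without the members, 30 components and 20 neighbours, giving 22 clusters, 20 of them neuronal. Members, lists and comparisons were chosen with earlier results of these data known.

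UMIs were summed over each group and scaled to CPM, and intervals of levels are exact Poisson; ratios have exact binomial intervals conditional on the summed counts; shares have exact Clopper-Pearson intervals (95%). The limit that a count of 0 allows was taken as 3 counts of the total, somewhat below the upper bound of these two-sided intervals. A member was called at 2-fold (3-fold for the highest cluster) with at least 20 UMIs over the groups compared and at least 3 UMIs in the higher group. Naming a class took 3 or more markers at 1.5-fold, including the leading one, with 1 among the 10 leading genes, thresholds set after the data were seen; the last clause left clusters 1 and 8 unnamed. Values are given for every member past a fold, for the members of the 12 pairs and for those nearest to 1-fold between sides; leading genes are the 5 with the largest fold among genes with at least 50 UMIs in the cluster. Scripts ran in Python 3.11.15 with numpy 2.4.6, scipy 1.17.1 and pandas 2.3.3, and were tested on simulated data. Positions are from GENCODE M21 (GRCm38), promoter sequences from RefSeq (GRCm38.p6). The alternatives tried were other hashtag calls, filters, folds, thinning and clusterings.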

Additional observations from a re-analysis of the deposited data

Results flagged for a closer look

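Nuclei that the hashtag call left out of every comparison held signal of both side-dependent members. Sim1 was at 69.7 CPM (64.4 to 75.3) in the 2385 nuclei called for neither hashtag and at 64.6 CPM (57.9 to 71.9) in the 944 doublets, against 10.6 CPM with the ARC and 109 CPM with the PVH hashtag. Tbx3 was at 14.4 CPM (12.0 to 17.1) in the nuclei called for neither and at 20.8 CPM (17.1 to 25.1) in the doublets, against 42.5 and 3.94 CPM. For both genes these nuclei lay between the sides, and the sides they came from were not determined.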

How the results depend on the processing

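No paired analysis was possible because the series holds 1 pooled gene expression library without replicates, and no replicate could be left out. A positive quantile of 0.99 left 1229 ARC and 407 PVH nuclei and a 4-fold difference in hashtag counts 106 and 436. Members higher with the ARC hashtag then numbered 5 under either, against 8, and under the 4-fold call Lhx6 (0.513) and Lhx9 (0.953) no longer had a higher level with the PVH hashtag. A fold of 3 gave 8 members higher with PVH, against 1.18% of genes, and 3 with ARC, against 0.922%. A fold of 5 gave 27 members past it in their highest cluster, against 7.82% of genes.

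Members higher in GABAergic clusters numbered 7 with 50 components and 4 at a quantile of 0.99, against 13, and those higher in glutamatergic clusters 5 with the ARC hashtag alone, against 10. The ratio of glutamatergic over GABAergic changed sides for Lef1 with 20 components (2.23), 50 components (27.6) and the quantile of 0.99 (10.0), for Hmx3 with 50 components (1.11), and at 0.99 for Lhx6 (2.95), Meis2 (3.24) and Dlx6 (1.18). With the ARC hashtag alone it did so for Lhx6 (1.31), Lhx9 (0.524), Foxp2 (0.874), Tcf7l2 (0.779) and Ebf1 (0.280), and with PVH alone for Lhx6 (1.76) and Prdm12 (0.671). The cause was not tested. In thinned nuclei Dlx6 was in 0% of Dlx1 and of Dlx5 carriers and Prdm12 in 0% of Tbx3 carriers, which allows up to 3.41%, 9.38% and 1.69% at 3 counts, or 4.11%, 10.9% and 2.06% by the exact intervals. Summed over the named classes, members higher ranged from 38 to 44 and lower from 127 to 165, the dopaminergic-like cluster alone having 10 to 18 higher, and no class was named among PVH nuclei alone. Genes with a few UMIs, such as Lhx6, Fezf1 and Gsx1, are limited by depth.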
